A study of Mus musculus with 10 samples.

Results

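The genes described here are the 4 Notch receptor genes of the mouse, Notch1, Notch2, Notch3 and Notch4, and Rbpj, which encodes the DNA-binding factor that the receptors act through. They were chosen by name, and a peak was counted at a gene when its centre lay in the gene body or in the regulatory domain of the gene. That domain reached from 5 kb upstream to 1 kb downstream of the 5′ end and was extended on both sides to the nearest such basal region of a neighbouring protein-coding gene, by at most 1 Mb. The 5 genes are among 21938 protein-coding genes of the annotation, and 17 of the 11094 RBPJ peaks were counted at them.

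The peaks come from chromatin immunoprecipitation and sequencing (ChIP-seq) in untreated RD1 cells, labelled as brain pericytes, the mural cells of capillaries, and grown in pericyte medium on collagen I. The series has 10 samples in 5 groups of 2 replicates: input chromatin without antibody, histone H3, H3K4me1, H3K4me3 and RBPJ. Both RBPJ samples carried 1 and the same list of peak starts and ends, with no height or score. Neither the spread between replicates nor the strength of a peak could therefore be given. Sequencing depth is not given in the sources used here. The remaining 8 samples are not analysed here. The labels give no genotype for RD1. The study's methods describe primary pericyte cultures from brains of Rbpj lox/lox mice, and whether RD1 cells carry that allele is not given in the sources used here. A list of positions holds no RNA level, so the labelled cell type could not be checked against its markers.

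Notch receptors are cleaved after a ligand on a neighbouring cell binds, and the released intracellular domain enters the nucleus. There it joins RBPJ and a Mastermind coactivator on DNA and genes nearby are transcribed, whereas RBPJ without Notch can assemble corepressors at the same sites. NOTCH3 is the receptor best known from vascular mural cells, NOTCH1 and NOTCH4 are best known from endothelium, and NOTCH2 is expressed in many tissues.

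The core of the known RBPJ recognition sequence is TGGGAA, and the fuller form carries a G, or C and G, before it. Shown first is 1 site from a peak at a transcription start site (TSS) of each of 4 genes, with G before the core where the peak holds such a site, and the site of an intronic peak of Notch3. Each run is 30 bases of GRCm38 read 5′ to 3′ on the strand named, with TGGGAA in capitals.
Notch1, peak at the 5′ end of the gene, chr2:26516516-26516545, plus strand: agtccgacagcgTGGGAAatactcacagtg
Notch2, peak over the TSS, chr3:98013955-98013984, minus strand: ggtgtcaaaagcTGGGAAcgccgcaagccc
Notch3, peak over the TSS, chr17:32166384-32166413, minus strand: gagctggagttgTGGGAAtctggggctgaa
Notch3, peak in intron 2, chr17:32162299-32162328, minus strand: aggtgcagagcgTGGGAAcccgcccgcggc
Rbpj, peak over the internal TSSs, chr5:53589311-53589340, minus strand: caacacgggccgTGGGAAatttcctaagcc
Of these 5 sites, the Notch2 site has C before the core and the others have G. The Notch1 site, the intronic Notch3 site and the Rbpj site carry CG before it, which gives CGTGGGAA.

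Where sites lie close together, the stretch that holds them is shown, since spacing and direction are then visible. TGGGAA and its reverse complement TTCCCA are in capitals. The first stretch, with sites 38562 to 38594 bp upstream of the 5′ end, belongs to a peak upstream of Notch1, the second lies in intron 2 of Notch1 and the third upstream of the internal TSSs of Rbpj.
Notch1, upstream, chr2:26555212-26555269, minus strand: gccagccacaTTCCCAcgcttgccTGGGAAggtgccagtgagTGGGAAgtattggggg
Notch1, intron 2, chr2:26494451-26494558, minus strand: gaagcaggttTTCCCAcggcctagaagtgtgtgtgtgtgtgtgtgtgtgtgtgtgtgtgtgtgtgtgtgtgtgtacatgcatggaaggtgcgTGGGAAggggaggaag
Rbpj, internal start, chr5:53589313-53589549, plus strand: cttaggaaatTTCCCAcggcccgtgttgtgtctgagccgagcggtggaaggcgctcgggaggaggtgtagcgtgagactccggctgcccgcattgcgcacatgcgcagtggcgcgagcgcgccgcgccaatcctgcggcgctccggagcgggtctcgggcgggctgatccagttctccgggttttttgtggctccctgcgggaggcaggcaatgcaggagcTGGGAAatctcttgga
In the upstream Notch1 stretch 3 sites lie in 58 bases, with gaps of 8 and 12 bp. In the intronic stretch the sites point away from each other across a gap of 76 bp that is mostly a TG repeat.

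All 5 genes had a peak, against 46.8% of protein-coding genes (10265 of 21938, 95% exact binomial interval 46.1 to 47.5%, for counting error only). The numbers were unequal. Notch1 had 7 peaks, Notch3 had 5, Rbpj had 3, and Notch2 and Notch4 had 1 each. At least as many peaks as Notch1 were found at 164 genes (0.748% of all), as many as Notch3 at 481 (2.19%) and as many as Rbpj at 1758 (8.01%), so that by this count Notch1 and Notch3 stood in the upper tail and the single peaks of Notch2 and Notch4 did not. The order depended on the rule. With the basal region and gene body alone Notch1 had 3 peaks (at least as many at 1.73% of genes) and Notch3 and Rbpj had 2 each (6.18%). With peaks of at least 500 bp alone Notch3 had 3 (3.32%) and Notch1 and Rbpj had 2 each (9.52%), so that Notch1 no longer led. Of those 3 peaks of Notch3, 2 are in large part copies of 1 sequence, described with the gene. Without that pair the 5 peaks of Notch3 become 3, the number of Rbpj.

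**Figure D1:**
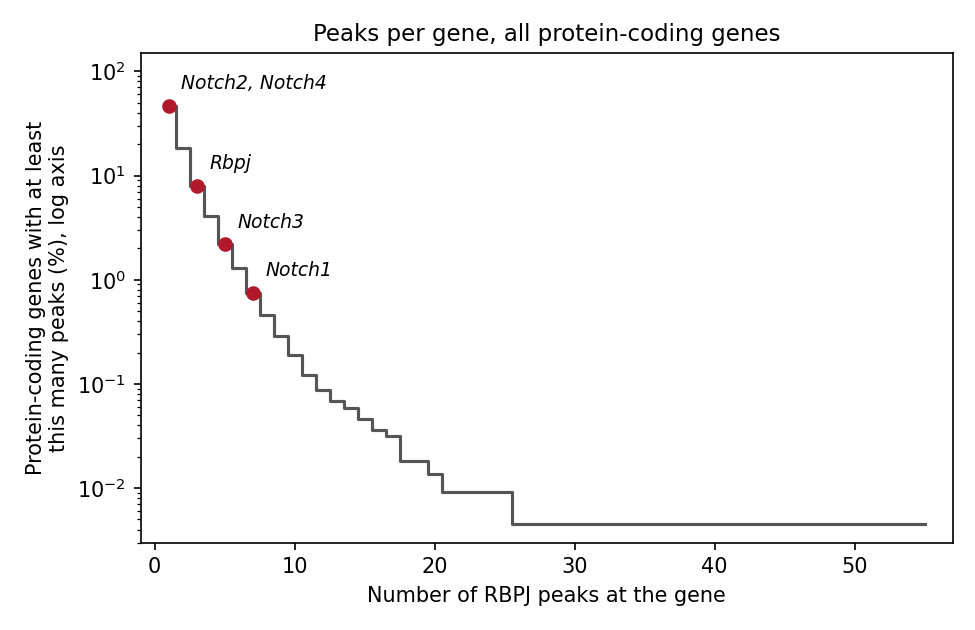
Percent of 21938 protein-coding genes (log axis) with at least the number of RBPJ peaks on the horizontal axis. The red points mark Notch2 and Notch4 at 1 peak (46.8%), Rbpj at 3 (8.01%), Notch3 at 5 (2.19%) and Notch1 at 7 (0.748%).

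A long domain can catch more peaks, so the counts were set beside the length searched. Body and domain together spanned 125 kb at Notch1, longer than those of 59.2% of genes, and 147 kb at Notch3. Per 100 kb of this span Notch1 had 5.61 peaks, against 0.558 over chromosome 2. Notch3 had 3.4 per 100 kb, or 2.04 without its copied pair, against 0.588 over chromosome 17. Rbpj, with 439 kb, had 0.684 per 100 kb against 0.579 over chromosome 5, and Notch2, with 253 kb, had 0.395 against 0.379 over chromosome 3. By the same count the density of peaks at Notch1 and Notch3 was several times that of their chromosomes. At Rbpj and Notch2 it was close to it. The chromosome values are over the whole length, also far from genes, and the spans of all genes were not set beside them. Notch4, with 1 peak in 66.2 kb, gives 1.51 per 100 kb, a value that rests on that single peak.

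**Figure D2:**
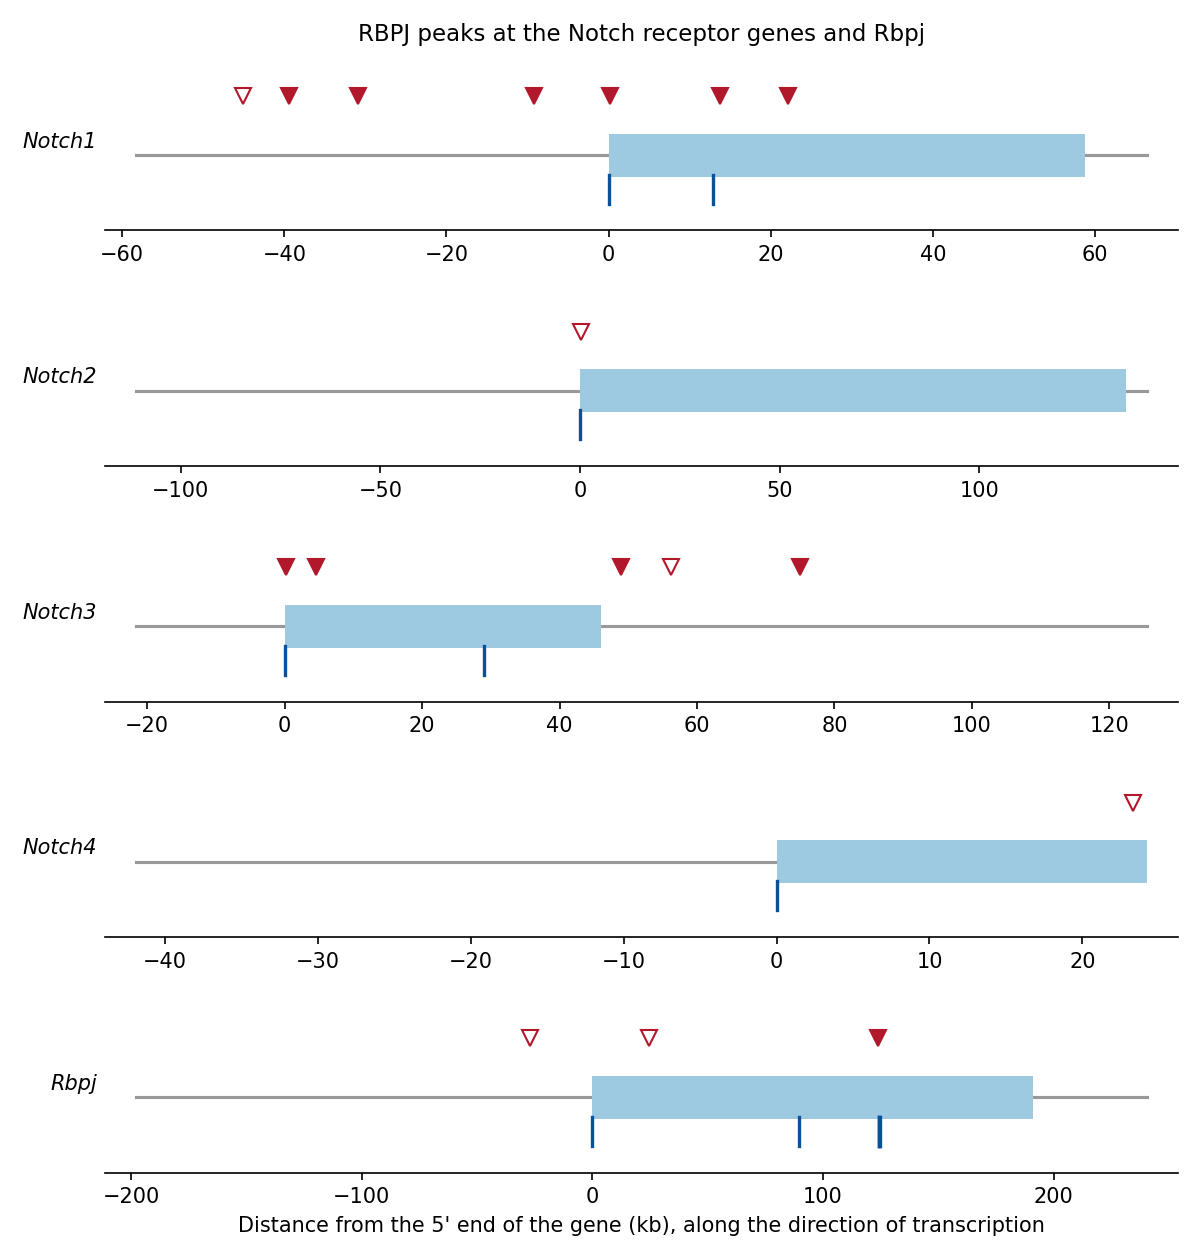
RBPJ peaks (triangles at the peak centre) at the 5 genes, with distance in kb from the 5′ end of the gene along the direction of transcription. Filled triangles hold GTGGGAA, blue bars are gene bodies, grey lines regulatory domains and dark ticks TSSs of protein-coding transcripts. Peaks of Notch1 lie on both sides of its 5′ end, 3 of the 5 peaks of Notch3 lie downstream of the gene, and the only peak of Notch4 lies at its 3′ end.

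A peak centre lay within 1 kb of a protein-coding TSS at 4 of the 5 genes, all but Notch4, against 27.5% of the 21853 genes with such a TSS in the annotation. Seen from the peaks the picture was the other way round: 5 of the 17 peaks (29.4%) lay within 1 kb of a TSS, against 49.5% of all peaks, since most peaks of Notch1 and Notch3 were away from their starts.

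Notch1 (chr2:26457903-26516663, minus strand, 34 exons) encodes the receptor studied most widely in blood vessel and blood cell development. Its 7 peaks ran from 45.1 kb upstream of the 5′ end to 22.1 kb downstream of it. The annotation gives the gene 2 protein-coding starts, the 5′ end itself (transcript Notch1-206) and the start of the principal transcript Notch1-201, 12841 bp further in. Each start had a peak near it, and these differed in width. At the 5′ end the peak was 170 bp wide (chr2:26516453-26516622), centred 126 bp inside the gene in an intron of Notch1-206, with a CGTGGGAA 6 bp from its centre. At the internal start the peak was 2189 bp wide (chr2:26501790-26503978), covered the TSS, and had a GC content of 62.0% and 139 CpG dinucleotides. The first was narrow, and the second was a broad CpG-rich interval over the start of the principal transcript. Sites in the second are included in the counts for the gene but are not described singly.

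A further peak lay in intron 2 of Notch1, 22129 bp from the 5′ end (chr2:26494310-26494758, 449 bp). It held both sites of the intronic stretch printed above, 70 and 12 bp from its centre, and both read CGTGGGAA. The TG repeat between them is a low-complexity sequence, and 8.59% of the 31-base words of this peak, that is of all its runs of that length, occur at more than 3 places in the genome. This peak and the one over the internal start were also in the domain of Sec16a, which encodes a protein of endoplasmic reticulum exit sites.

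Upstream of Notch1 lay 4 peaks, and all of them were also in the domain of Egfl7, which encodes a secreted protein of blood vessel endothelium. At 30926 bp upstream (chr2:26547447-26547732, 286 bp) there were 2 sites, 1 of them GTGGGAA at 33 bp from the centre. At 9218 bp upstream (chr2:26525811-26525952, 142 bp) there was 1 GTGGGAA, 49 bp from the centre. The nearest TSS of both was that of Notch1. At 39442 bp upstream the peak was 1943 bp wide (chr2:26555134-26557076) and held 4 sites, of which 3 form the cluster printed above, between 848 and 880 bp from its centre, while the fourth lay 682 bp from it. At 45138 bp upstream (chr2:26561712-26561890, 179 bp) the peak held no TGGGAA. These last peaks lay nearer to the start of Egfl7, at 23909 and 18213 bp, than to any start of Notch1. With each peak given to its nearest TSS, Notch1 kept 5 peaks.

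Over all 7 Notch1 peaks there were 11 TGGGAA sites, of which 8 were GTGGGAA and 5 were CGTGGGAA. Notch1 thus held 5 of the 7 CGTGGGAA sites of the 5 genes.

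Notch2 (chr3:98013527-98150361, plus strand, 34 exons), a broadly expressed receptor, had its peak at the start of the gene. It was 980 bp wide (chr3:98013340-98014319), covered the TSS and was centred 302 bp inside the gene, in intron 1. GC content was 68.5%, with 106 CpG dinucleotides. Its only TGGGAA lay 141 bp from the centre and was not preceded by G, so the peak had no GTGGGAA and no core site in its central 200 bp. No other peak lay in the 253 kb searched.

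Notch3 (chr17:32120820-32166852, minus strand, 33 exons) encodes the receptor characteristic of mural cells, and its 5 peaks fell into a pair at the 5′ end and 3 beyond the 3′ end. The first (chr17:32166354-32167010, 657 bp) covered the TSS of Notch3-201 and was centred in coding exon 1, 170 bp into the gene. It held 3 sites, all reading in the direction of the gene and all more than 100 bp from the centre, of which 1 was GTGGGAA. The second (chr17:32162147-32162395, 249 bp) lay in intron 2, 4581 bp into the gene, with a GC content of 70.7% and a CGTGGGAA 43 bp from its centre. A second annotated start, that of Notch3-202, had no peak within 1 kb, and the nearest centre was 19918 bp away.

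The 3 peaks downstream lay 48945, 56197 and 75029 bp from the 5′ end. All 3, and the intronic peak, were also in the domain of Hsf2bp, which encodes a binding partner of heat shock factor HSF2. The middle one (chr17:32110587-32110724) was 138 bp wide, the narrowest of the 17, and held no TGGGAA. The other two, at chr17:32117599-32118215 (617 bp) and chr17:32091527-32092119 (593 bp), are in large part copies of 1 sequence in opposite orientation, 26.1 kb apart. Their sites are shown in a stretch of 140 bases from each, the second read on the minus strand so that both read alike.
Notch3, first copy, chr17:32117871-32118010, plus strand: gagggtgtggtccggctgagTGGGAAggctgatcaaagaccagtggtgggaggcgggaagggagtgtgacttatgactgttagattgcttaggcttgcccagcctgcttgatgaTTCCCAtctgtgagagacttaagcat
Notch3, second copy, chr17:32091823-32091962, minus strand: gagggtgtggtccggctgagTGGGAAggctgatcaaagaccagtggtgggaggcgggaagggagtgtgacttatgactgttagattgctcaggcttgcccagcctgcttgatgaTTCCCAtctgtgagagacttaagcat
The stretches differ at 1 of 140 positions, T90C counted from 1 at the left end with the first copy named first, and are 99.3% identical. Each holds a GTGGGAA and a TGGGAA that point toward each other with 88 bp between them. Peak centres lay 13 bp from the GTGGGAA in the first copy and 117 bp from it in the second.

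Of the 31-base words in these peaks, 56.4% in the first and 54.0% in the second occur elsewhere in the genome, none at more than 3 places. The first copy lies in the antisense gene Gm17276 and the second in Pdxk-ps, a pseudogene of the pyridoxal kinase gene Pdxk. A shorter match, of 40 words for the first copy and 53 for the second, lies in Pdxk on chromosome 10, where no peak was listed. The authors kept reads with up to 3 matching positions and reported 1 of them, so a read from words shared by both copies may have been placed at either, and the copies cannot be told apart there. Without this pair Notch3 had 3 peaks.

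Notch4 (chr17:34564268-34588503, plus strand, 30 exons), the receptor best known from endothelium, had no peak near its start, and the nearest centre was 23311 bp away. Its single peak (chr17:34587438-34587721, 284 bp) was centred in coding sequence of exon 30, the last exon. GC content was 75.7%, the highest of the 17 peaks, and it held no TGGGAA. The nearest TSS was that of Gpsm3, a modulator of G-protein signalling, at 2227 bp, and the peak was also in the domains of Gpsm3 and of Pbx2, a homeobox factor. It belonged to Notch4 through the gene body alone, since the regulatory domain of Notch4 ends at 34584805, before the peak.

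Rbpj (chr5:53466152-53657362, plus strand) has 6 annotated protein-coding starts, and its 3 peaks were set unevenly to them. The outermost start, of transcript Rbpj-210, had no peak centre within 24677 bp, and that of Rbpj-202 none within 34090 bp. The third peak (chr5:53589130-53590718, 1589 bp), 123772 bp into the gene, covered the starts of Rbpj-201, Rbpj-208 and Rbpj-203, which lie 290, 444 and 547 bp from its centre. Rbpj-201 carries the longest coding sequence, in 11 exons. This peak had a GC content of 67.5% and 157 CpG dinucleotides, the most of the 17 peaks, and 5 TGGGAA sites. One of them was a CGTGGGAA 598 bp from the centre, on the upstream side, and one plain TGGGAA lay 80 bp from it. The start of Rbpj-207 lay 1057 bp from the centre and outside the peak. A peak of RBPJ was thus listed at its own gene over 3 of the 6 starts and not at the outermost one.

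The other two Rbpj peaks were away from any start. At 27273 bp upstream of the gene the peak was 2220 bp wide (chr5:53437770-53439989), the widest of the 17, with a GC content of 44.8%, the lowest, and 3 TGGGAA sites, none preceded by G, of which the one nearest to the centre was 825 bp from it. It was also in the domain of Smim20, a gene of a small mitochondrial membrane protein. At 24677 bp into the gene, in an intron, the peak was 250 bp wide (chr5:53490705-53490954) and held no TGGGAA. That peak and the one over the internal starts were also in the domain of Cckar, the cholecystokinin A receptor gene.

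Across the 17 peaks, width ran from 138 to 2220 bp with a median of 449 bp, against 690 bp for all peaks, and GC content from 44.8 to 75.7% with a median of 57.7%, against 55.8%. By the position of the centre, 9 peaks lay inside their gene (52.9%), while 59.6% of all peaks lay inside some protein-coding gene. Introns held 7 of the 17 centres (41.2%), against 33.0% of all peaks centred in such a gene and in no exon. These intronic centres include those of the peaks at the starts of Notch1, Notch2 and Rbpj. The body or domain of another gene also held 14 of the 17 (82.4%), and 60.8% of all peaks lay in those of at least 2 genes. The nearest TSS belonged to the described gene for 14 of the 17, the exceptions being the outermost pair upstream of Notch1 and the peak in Notch4.

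Core sites were counted on both strands. Within 100 bp of the peak centre, TGGGAA occurred in 8 of 17 peaks (47.1%), against 25.8% of all peaks. The 8 were 4 peaks of Notch1, 3 of Notch3 and the Rbpj peak over the internal starts. Anywhere in the peak it was found in 13 of 17 (76.5%), against 64.9%. Width moves with this share, since 41.1% of all peaks under 500 bp had a central site but 17.1% of wider ones. Of the 9 narrower peaks at these genes 5 had one, and of the 8 wider peaks 3 did. Both counts were above the share of all peaks of like width, though each rests on under 10 peaks and the copied pair downstream of Notch3 makes up 2 of the last 3.

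The longer forms differed more from the background than the core did. GTGGGAA, which contains TGGGAA, was found in 11 of 17 peaks (64.7%), against 29.3% of all peaks. They were 6 peaks of Notch1, 4 of Notch3 and 1 of Rbpj. CGTGGGAA, which contains both, was counted after the sequences above had been seen and was found in 6 of 17 (35.3%), against 7.29% of all peaks. Of the 28 TGGGAA sites in the 17 peaks, 13 were preceded by G (46.4%), against 26.5% in all peaks and 19.8% over the 21 chromosomes. The genes were unequal in this, with 8 of 11 sites at Notch1, 4 of 8 at Notch3, 1 of 8 at Rbpj and 0 of 1 at Notch2. Per kb of sequence there were 2.16 TGGGAA at these genes, 1.25 in all peaks and 0.934 over the chromosomes, and 1.01, 0.331 and 0.185 GTGGGAA. The copied pair downstream of Notch3 adds the same sites a second time to these counts.

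**Figure D3:**
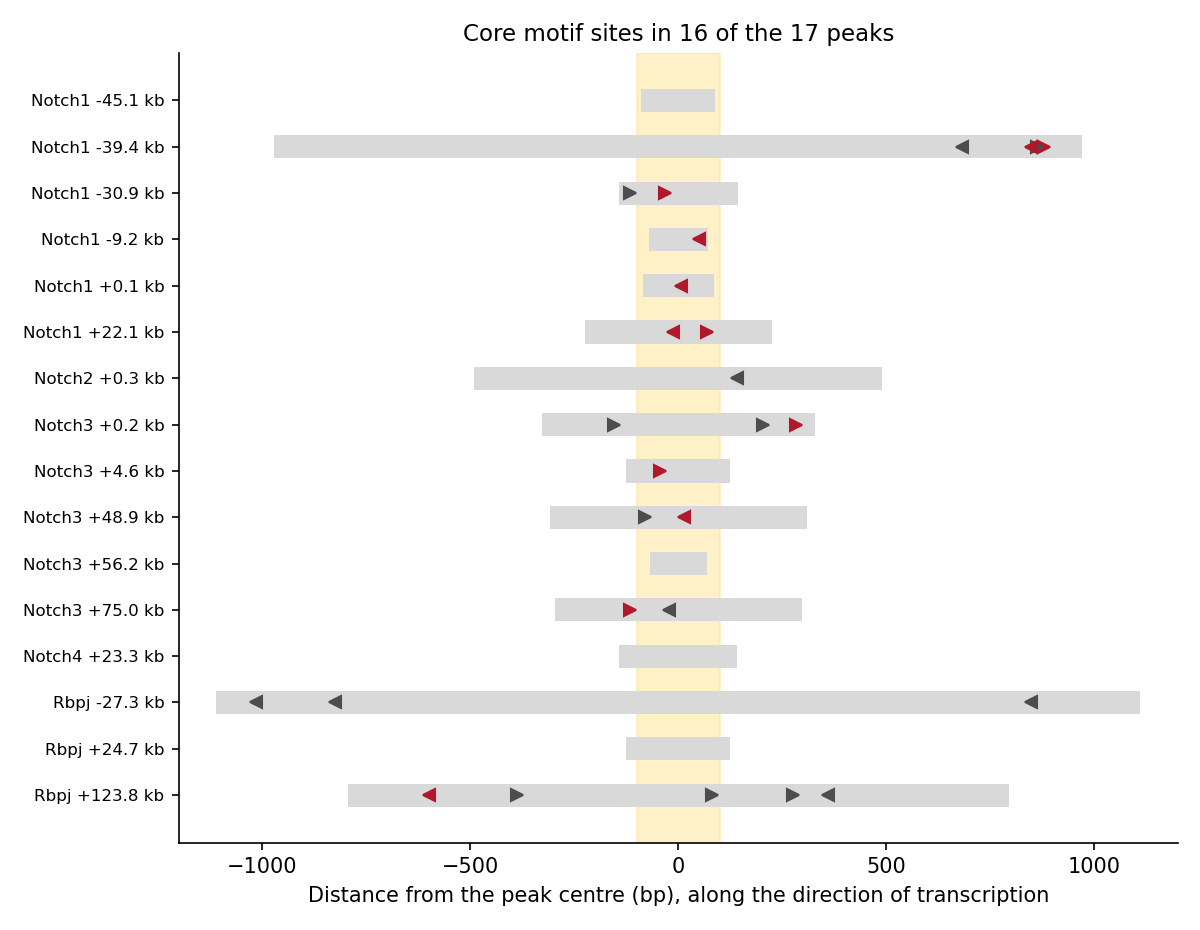
TGGGAA sites in 16 of the 17 peaks (the peak over the internal start of Notch1 is not drawn), with distance in bp from the peak centre along the direction of transcription of the gene. Grey bars are the peaks, named by the distance of their centre from the 5′ end of the gene, and the yellow band is the central 200 bp. Arrowheads give the direction of each site, red where it is GTGGGAA and dark where it is not. Red sites lie in peaks of Notch1, Notch3 and Rbpj, and 7 of them are within 100 bp of the centre, against 3 of the 15 dark ones.

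Of the 13 sites preceded by G, 7 lay within 100 bp of the peak centre, against 25.7% of such sites in all peaks, and of the 15 others 3 did, against 20.1%. The median width of the 17 peaks was 449 bp and that of all peaks 690 bp, and the part of width in this count was not tested. A pair of sites that point at each other with 11 to 21 bp between them, the arrangement known to hold paired Notch complexes, was searched for with TGGGAA or TGAGAA in either place, and 0 of the 17 peaks had one, against 2.65% of all peaks. Pairs of TGGGAA that point at each other had gaps of 88 bp downstream of Notch3 and of 78 bp or more at Rbpj.

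RefSeq promoter windows of GRCm38.p6, from 250 bases before to 50 after a start, were available for all 5 genes, with 2 windows for Rbpj. Both Rbpj windows lay wholly inside the peak over the internal starts and held 2 and 1 TGGGAA. These windows overlap, and the site of the second is also in the first. The windows of Notch1, Notch2 and Notch3 had 206, 248 and 170 of their bases in peaks and held no TGGGAA, and that of Notch4 had none in a peak and held none either. Over 32851 such windows 25.6% held TGGGAA. The Notch1 window lies at the internal start, and the peak at the 5′ end of that gene has no window here. In the peaks that reach into the windows of Notch1, Notch2 and Notch3, the sites therefore lie outside the windows.

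Other genes of the pathway, 47 named from general knowledge, were set beside these 5. A peak was counted at 35 of them (74.5%), with 74 peaks in all, against the 46.8% of all protein-coding genes given above. A peak centre lay within 1 kb of a TSS at 25 of the 47, against 27.5% of all genes with a TSS. By role, 5 of 6 ligand genes had a peak, with 5 peaks at Jag1 and none at Dll3, and 8 of 9 genes that process the receptors did, with 2 peaks at the sheddase gene Adam10 and none at the gamma-secretase subunit gene Psenen. Of the fringe genes, which add sugars to the receptors, Lfng had 1 peak and Mfng and Rfng had none. In trafficking and turnover 7 of 10 had a peak, with 8 at the ubiquitin ligase gene Neurl1a and none at Numbl, Itch and Dtx1.

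Among partners of RBPJ, 4 of 6 coactivator genes had a peak, with 3 each at Maml3, a Mastermind, and at the acetyltransferase gene Ep300, and none at Kat2b and Snw1. Of the genes grouped as corepressors 4 of 6 had a peak, with 1 each at Spen, Ncor1, L3mbtl3 and Rita1. None was counted at Hdac1 and Cir1. Of 6 classical target genes 5 had a peak, with 10 at Hes1, which encodes a repressor, and none at Heyl. Rbpjl, the paralogue of Rbpj, had 1 peak of 2014 bp at its TSS with 4 TGGGAA sites. The 7 peaks of Notch1 were thus fewer than those of Hes1 and Neurl1a and more than those of any other gene on the list.

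**Figure D4:**
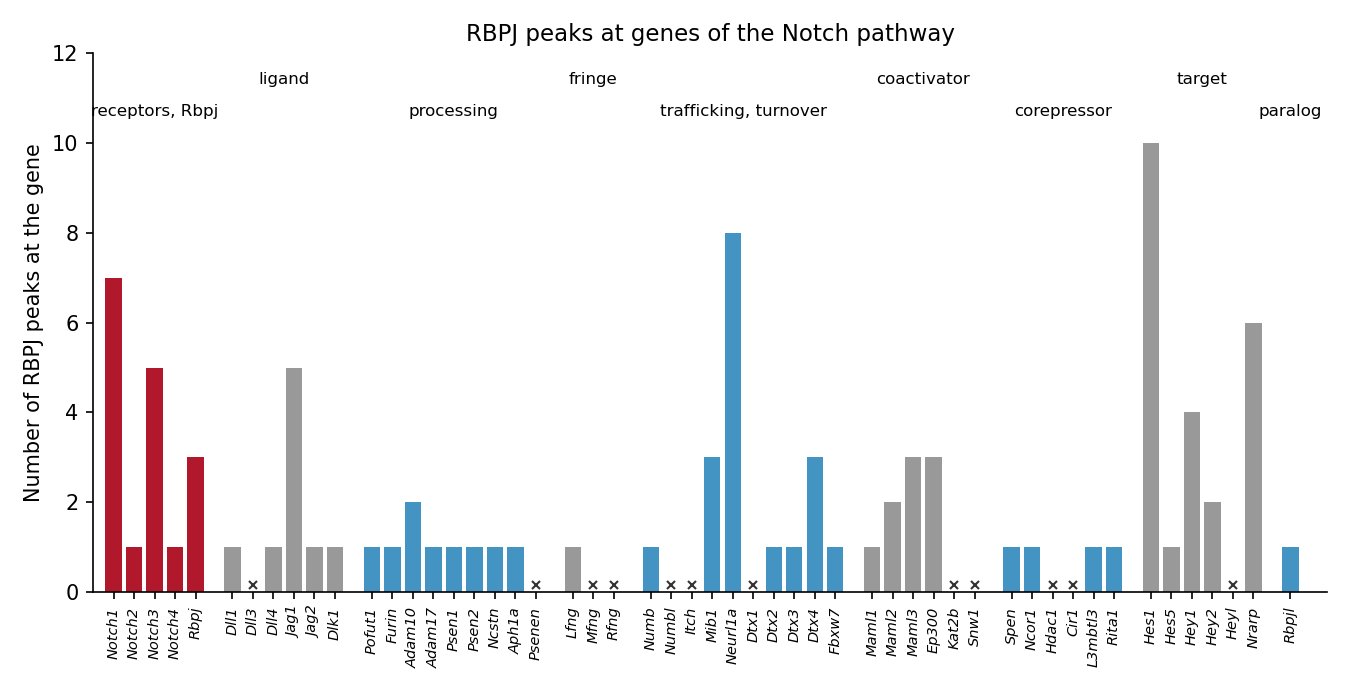
Number of RBPJ peaks at Notch1 to Notch4 and Rbpj (red bars) and at 47 other genes of the Notch pathway grouped by role (grey and blue bars alternate between roles). Crosses mark genes with no peak. Bars reach 10 at Hes1, 8 at Neurl1a and 7 at Notch1.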

How the data were processed

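ChIP-seq was done by the authors on RD1 cells. Per the study's methods, reads were aligned to GRCm38 with bowtie, keeping reads with up to 3 matching positions and reporting 1, duplicates were removed, peaks were called with MACS2 and PeakRanger in each replicate, peaks within 2 kb were merged, and regions with at least 3 overlapping calls and outside blacklisted regions were kept. Read length is not given in the sources used here. The deposited values are positions in bp of this consensus list, and both replicate files were identical and counted once. Merging can widen a peak and move its centre.

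The first base of a chromosome was taken as 1 for peak starts, following the widths in the study's supplement. Genes and TSSs were taken from GENCODE M21 and sequence from GRCm38.p6, and 0 peaks ran past a chromosome end. Repeats were measured as 31-base words on either strand found at more than 1 place on the 21 chromosomes. No test was run, since 1 list without scores has no replicate spread, and counts are read against the same count over all genes or peaks. Named genes were the 5 genes, the neighbours that share their peaks, and from the pathway list those without a peak and those with the most in each role. A gene of that list, left out of its counts, and a sequence are not reported here. The genes and lists were chosen with earlier results of these data known. Domains, motif and word counts were tested on simulated data. The software was pysam 0.24.0, numpy 2.4.6, numba 0.67.0, scipy 1.17.1 and pandas 2.3.3 under Python 3.11.15, with matplotlib 3.10.9 for figures.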

Additional observations from a re-analysis of the deposited data

How the results depend on the processing

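With the basal region and gene body alone, peaks at the 5 genes fell to 9 and the share of all genes with a peak to 35.0%, and with peaks of at least 500 bp, where Notch4 had none, to 8 and 34.9%. That share was 43.3% with the extension limited to 100 kb, 48.3% with any overlap in place of the centre, 45.7% with the domain alone, which gave Notch4 no peak and 16 peaks in all, and 35.0% with the nearest TSS, a setting chosen after seeing the data. In the same settings 4 or 5 of the 5 genes had a peak and 28 to 35 of the 47 pathway genes did. Central TGGGAA sites were in 3 peaks of at least 500 bp (17.1% of all such peaks) and, with the whole peak searched, in 13 (64.9%). In all peaks the share was 15.4% for the central 100 bp, where 6 of the 17 had a site, 9.28% for GTGGGAA, where 6 had one, and 35.8% when TGAGAA was also counted, where 8 had one. Counting only the 5′ end of the gene as a start left 3 genes with a peak there, without Rbpj, against 24.9% of all genes. Without RBPJ replicate 1 or replicate 2 the counts were 17 and 46.8%, because the lists are identical. No paired analysis was possible because both RBPJ samples hold 1 list and no result compares samples. With no score, depth or input used here, a weak peak cannot be told from a strong one, and a gene without a peak may hold binding under the calling threshold.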

Other observations

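Rbpj also has processed pseudogenes, copies of its spliced RNA set back into the genome, and 1 of them lay under a peak. Rbpj-ps3 (chr6:46529354-46530794), within the gene Cntnap2, was covered over 98.1% of its length by a peak of 3457 bp (chr6:46527310-46530766), wider than 95.7% of all peaks. The words shared with spliced Rbpj run from 46526934 to 46530795, so that the whole peak lies within the copied sequence, and it held 3 TGGGAA sites. Of the 5429 words of spliced Rbpj, 59.6% occur at more than 1 place. Of the 11 exons of Rbpj itself, 1 overlapped a peak, exon 1. Rbpj-ps1 and other partial copies on chromosome 4 had no peak. For comparison, 63 of 9940 processed pseudogenes (0.634%) overlapped a peak and 36 (0.362%) were covered over more than 90% of their length, and among those of at least 1 kb the numbers were 23 and 10 of 2112 (1.09 and 0.473%). Reads that match both the copy and an exon of Rbpj may have been placed at either, and input reads over the copy were not used here.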
